A study of Mus musculus with 4 samples.

Results

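Elastic fibre, proteoglycan and matricellular genes encode the non-collagen part of the connective tissue matrix. The group described here holds 38 genes, taken by symbol from a list of lysyl oxidases, elastin and its microfibril partners, fibulins, emilins, latent TGF-beta binding proteins, proteoglycans and matricellular or adhesive glycoproteins, out of 22609 genes in the deposited table. Each of the 38 symbols was found, and each passed the filter on low counts. They were read in 4 polyadenylated RNA libraries from whole testes of mice on postnatal day 3, of a strain labelled C57BL/6J dominant background. In 2 libraries, called mutant here, the thyroid hormone receptor alpha 1 was labelled dominant negative, a form that blocks the normal receptor, and in the other 2 it was labelled wild type. The mice came from crosses of AmhCre animals, whose Cre recombinase is driven by the promoter of the Sertoli cell hormone gene Amh, with heterozygous carriers of the TRαAMI allele. The labels do not say whether the wild-type mice carried AmhCre or an unrecombined TRαAMI allele, nor whether different animals stand behind the libraries of a genotype. The p-values therefore reflect the scatter of these 4 samples, which may be technical.

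Elastic fibres form when tropoelastin is deposited on a scaffold of fibrillin microfibrils and crosslinked by lysyl oxidases, with fibulins guiding the assembly. Latent TGF-beta binding proteins tether inactive TGF-beta to the same microfibrils, and small leucine-rich proteoglycans coat collagen fibrils and set their diameter. Matricellular proteins such as thrombospondins and tenascin C bear little load and instead modulate how cells attach to and signal through the matrix. In the testis many such genes are expressed mainly by interstitial fibroblasts, peritubular cells around the tubules and the capsule, rather than by Sertoli cells. The series title says the mutation was restricted to Sertoli cells. Which cells expressed each of the 38 genes was not tested in these libraries of whole testes.

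Of the 38 genes, 10 rose in mutant testes and none fell, with 28 not called. In whole tissue, more cells of a type and more RNA per cell cannot be told apart. Over all 14788 genes tested, 3.15% were called higher and 2.52% lower. The genes that rose were 3 lysyl oxidases (Lox, Loxl1 and Loxl2), Emilin2, the fibulin gene Fbln5, the proteoglycan genes Aspn and Ogn, both thrombospondin genes of the group (Thbs1 and Thbs2) and the fibronectin gene Fn1. Elastin, the fibrillins, the latent TGF-beta binding proteins and the abundant proteoglycan and glycoprotein genes Dcn, Bgn and Sparc were not called. Calls are by edgeR's quasi-likelihood test at an adjusted p below 0.05 (Benjamini-Hochberg over all tested genes), and fold changes are mutant over wild type. No member had an unadjusted p below 0.05 in the lower direction, and DESeq2 and limma voom also called 0 members lower. In the higher direction 21 of the 38 members reached an unadjusted p below 0.05, against 1911 of all 14788 genes tested. In either direction 25.5% of all tested genes did so.

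The shift was spread over the group. The median log2 fold change of the 38 genes was 0.32, against -0.01 over all tested genes. Positive values were found for 35 of the 38, and for 7273 of all 14788. Between the wild-type libraries the gap was similar. Replicate 1 over replicate 2 had a median log2 ratio of 0.32 in these genes, with 33 of 38 positive. Dropping wild-type replicate 2 lowered the group median to 0.17, and dropping wild-type replicate 1 raised it to 0.59. Scaling to 4 stromal markers, described below, gave 0.06. Genes that vary together are not independent, so these counts of genes are no test. Both mutant libraries lay above both wild-type libraries for 29 of the 38, against 28.3% of all tested genes, and both lay below for none. In either direction the groups stood apart for 57.3% of all tested genes. The share of gene counts taken by the 38 genes was 1.34 and 1.34% in the mutant libraries and 1.22 and 1.03% in the wild-type libraries. The largest contributions in CPM (counts scaled to a common library size by edgeR) came from Dcn, which averaged 1209 CPM in mutant and 1009 CPM in wild-type testes, and Sparc, which averaged 4205 CPM in mutant and 4019 CPM in wild-type testes (n = 2 each), though neither was called.

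**Figure D1:**
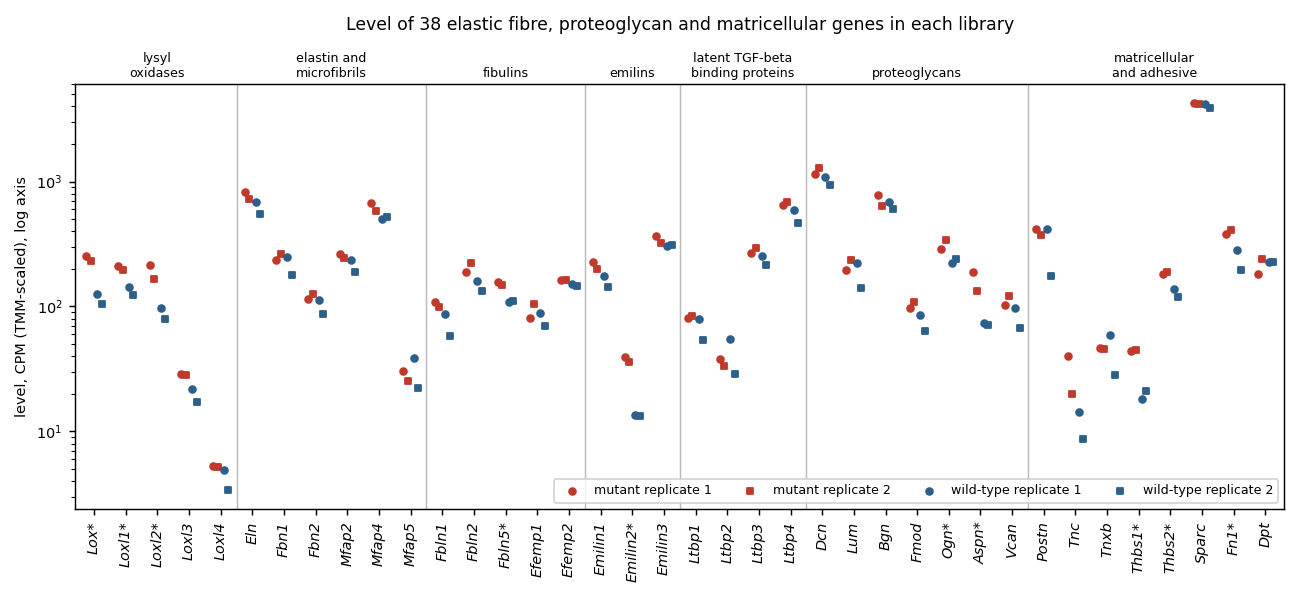
Level of each of the 38 genes in CPM (log axis) in the 2 mutant (red) and 2 wild-type (blue) libraries, grouped by role. Asterisks mark the 10 called genes. In these 10 the red points stand clear of the blue ones, most widely for Emilin2, at 39.2 and 36.1 CPM in mutant and 13.5 and 13.2 CPM in wild-type libraries.

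The libraries and the other cells in them set the frame for these values. Gene counts ran from 11089136 to 15636832 in the mutant and from 10230512 to 13228903 in the wild-type libraries. Defining markers of the testis were present: 11 Sertoli cell markers summed to 7351 and 7320.1 CPM in the mutant libraries and 8312 and 9114 CPM in the wild-type libraries, and 6 Leydig cell markers to 1547 and 1518 CPM in the mutant libraries and 1291 and 1435 CPM in the wild-type libraries. Of the Sertoli cell markers 2 were called lower and 0 higher. The 2 were Cldn11 (log2 -1.22 ± 0.09, adjusted p = 0.00236) and Aard (log2 -1.01 ± 0.14, adjusted p = 0.0119). None of the Leydig cell markers was called. Stromal fibroblast markers, which include collagen genes, had higher sums in mutant testes. The 7 of them summed to 10718 and 10309.5 CPM in the mutant libraries and 8547 and 6026 CPM in the wild-type libraries, with 1 of 7 called, and wild-type replicate 2 was the lowest. Of skeletal muscle markers 8 of 10 were called higher, with sums of 2479 and 648 CPM in the mutant libraries and 19.2 and 17.9 CPM in the wild-type libraries, with Myog at 0 in both wild-type libraries. Of adipocyte markers 5 of 6 were called lower, with sums of 27.2 and 26.3 CPM in the mutant libraries and 76.2 and 84.3 CPM in the wild-type libraries, and Cfd was at 0 in both mutant libraries. Of 6 peritubular myoid cell markers 0 were called, and their sum, most of it Acta2, overlapped between the genotypes at 1806 and 1513 CPM in the mutant libraries and 1631 and 1584 CPM in the wild-type libraries. Within it, Des, which skeletal muscle also expresses, lay higher in both mutant libraries, with 246 and 110.0 CPM in the mutant libraries and 87.3 and 63.8 CPM in the wild-type libraries (log2 1.23 ± 0.32, adjusted p = 0.0647). Myh11 lay lower in both (log2 -0.33 ± 0.11, adjusted p = 0.121). The 3 markers of tendon and muscle connective tissue were split. Scx, which makes up most of their sum, was called lower, with 57.8 and 58.2 CPM in the mutant libraries and 80.1 and 93.02 CPM in the wild-type libraries (adjusted p = 0.0243). Mkx lay higher in both mutant libraries without a call, with 15.7 and 12.4 CPM in the mutant libraries and 10.9 and 9.02 CPM in the wild-type libraries (log2 0.47 ± 0.21, adjusted p = 0.199), and Tnmd was too low to be tested. Of germ cell markers 5 of 7 tested were called lower, and of mesothelium and duct markers 4 of 6 higher, with sums of 373 and 490.0 CPM in the mutant libraries and 242 and 269 CPM in the wild-type libraries. The part of these cell types in the matrix results was not tested beyond the values given below.

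The lysyl oxidases oxidise lysine residues of elastin and collagen so that the fibres crosslink. Of their 5 genes 3 rose, and the summed level of the 5 was 713 and 625 CPM in the mutant libraries and 391 and 330.1 CPM in the wild-type libraries. Lox, which encodes the founding enzyme (chromosome 18, 52675723 to 52689521, minus strand, mm9; ENSMUSG00000024529.6), had 251 and 231 CPM in mutant libraries 1 and 2, against 125 and 106 CPM in wild-type libraries 1 and 2. Both mutant libraries were about equally high and the groups did not overlap. The log2 fold change was 1.06 ± 0.10 (SE; 2.09-fold, edgeR quasi-likelihood adjusted p = 0.00513), which placed Lox at rank 17 of 14788 by p. Loxl2, an enzyme that also crosslinks basement membrane collagen (chromosome 14, 70008978 to 70095640, plus strand), had 216 and 165 CPM in mutant libraries 1 and 2, against 97.6 and 79.1 CPM in wild-type libraries 1 and 2. Here mutant replicate 1 was the higher of the pair, and the log2 fold change was 1.10 ± 0.15 (adjusted p = 0.0104). Loxl1, which acts on elastin (chromosome 9, 58135530 to 58161019, minus strand), had 211 and 196 CPM in mutant libraries 1 and 2, against 142 and 125 CPM in wild-type libraries 1 and 2. The rise was smaller than that of Lox, 1.52-fold (log2 0.61 ± 0.10, adjusted p = 0.0173). Loxl3 had 28.6 and 28.4 CPM in mutant libraries 1 and 2, against 21.7 and 17.4 CPM in wild-type libraries 1 and 2, apart in the same direction without a call (log2 0.54 ± 0.15, adjusted p = 0.0751). Loxl4 was near the bottom of the group at 3.43 to 5.28 CPM over the 4 libraries (adjusted p = 0.555).

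The shares within the family followed these fold changes. Per kilobase of exon, the share of Lox in the summed lysyl oxidase level was 32.4 and 33.6% in the mutant libraries and 28.4 and 28.2% in the wild-type libraries. Loxl1 was the most abundant per kilobase in each library, at 38.3 and 39.97% in the mutant libraries and 45.4 and 46.9% in the wild-type libraries. Per 100 counts of Loxl1, Lox had 119 and 118 counts in the mutant libraries and 87.96 and 84.7 counts in the wild-type libraries. These ratios are taken within a library and do not depend on scaling between libraries. Both mutant libraries held more Lox than Loxl1 reads, and both wild-type libraries fewer. Lox had the larger fold change of the pair, so the direction of its share and ratio is no separate test.

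Elastin and the microfibril genes had smaller fold changes than Lox, Loxl1 and Loxl2; the difference was not tested. None of the 6 was called by edgeR, by DESeq2 or by limma voom, and 2 reached an unadjusted p below 0.05. Eln, the elastin gene, had 828 and 719.6 CPM in mutant libraries 1 and 2, against 691 and 546 CPM in wild-type libraries 1 and 2 (log2 0.32 ± 0.13, adjusted p = 0.171). Both mutant libraries lay above both wild-type libraries, but mutant replicate 2 and wild-type replicate 1 were closer to each other than to their own partners. The fibrillin genes Fbn1 and Fbn2, which build the microfibril, had log2 fold changes of 0.21 ± 0.15 and 0.27 ± 0.13 (adjusted p = 0.413 and 0.222). The share of Fbn2 in the fibrillin level per kilobase was 36.3 and 35.8% in the mutant libraries and 34.3 and 36.02% in the wild-type libraries. The balance of the 2 fibrillins thus differed by less between genotypes than between the wild-type libraries. Mfap2 and Mfap4, microfibril-associated glycoproteins, were at 0.26 ± 0.11 and 0.30 ± 0.10 (adjusted p = 0.197 and 0.115). Mfap5, a relative of Mfap2, was at -0.16 ± 0.24, with 30.5 and 25.3 CPM in mutant libraries 1 and 2, against 38.98 and 22.3 CPM in wild-type libraries 1 and 2, so that wild-type replicate 1 stood above the other 3 libraries.

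Against elastin, Lox stood higher in both mutant libraries. Per 100 counts of Eln, Lox had 30.4 and 32.1 counts in the mutant libraries and 18.1 and 19.3 counts in the wild-type libraries. The groups did not overlap in this ratio, and the libraries of a group lay within 2 counts of each other. Lox had the larger fold change of the pair, so the direction of the ratio is no separate test.

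**Figure D2:**
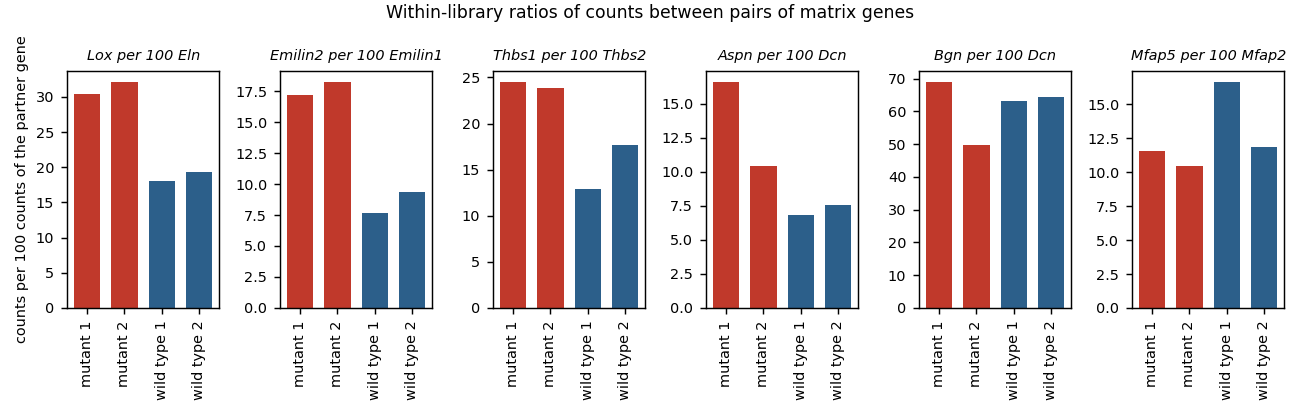
Counts of the first gene per 100 counts of the second within each library, for 6 pairs of matrix genes; bars are single libraries, mutant in red and wild type in blue. The ratios of Lox to Eln, Emilin2 to Emilin1, Thbs1 to Thbs2 and Aspn to Dcn were higher in both mutant libraries. In each of these pairs the first gene was called higher and had the larger fold change. The direction of these ratios thus largely follows from the fold changes and is no separate test. The ratio of Bgn to Dcn overlapped between groups, at 69.0 and 49.9 in mutant against 63.1 and 64.6 in wild-type libraries.

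Fibulins bridge elastin, microfibrils and basement membranes. Of 5 genes, Fbln5 rose and the other 4 were not called. Fbln5 (chromosome 12, 102984775 to 103057265, minus strand; ENSMUSG00000021186.8), whose product binds elastin and lysyl oxidase-like 1 and which mice need to form elastic fibres, had 158 and 148 CPM in mutant libraries 1 and 2, against 108 and 111 CPM in wild-type libraries 1 and 2. The pairs were tight and well apart (log2 0.48 ± 0.08, 1.397-fold, adjusted p = 0.0226). Fbln1 and Fbln2, fibulins of basement membranes and vessel walls, were of like size but more scattered, at 0.51 ± 0.17 and 0.48 ± 0.12 (adjusted p = 0.112 and 0.0562), and DESeq2 called both. Efemp1 and Efemp2, also called fibulin-3 and fibulin-4, were at 0.23 ± 0.15 and 0.13 ± 0.08 (adjusted p = 0.395 and 0.334).

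Emilins are elastin-microfibril interface glycoproteins. Emilin2 (chromosome 17, 71601514 to 71660896, minus strand; ENSMUSG00000024053.9) had 39.2 and 36.1 CPM in mutant libraries 1 and 2, against 13.5 and 13.2 CPM in wild-type libraries 1 and 2. The libraries of each genotype nearly coincided, and this was the largest fold change of the 38 genes, 2.81-fold (log2 1.49 ± 0.14, adjusted p = 0.00444), at rank 12 of 14788 by p. It was a minor member by level: its share of the emilin level per kilobase was 5.93 and 6.20% in the mutant libraries and 2.61 and 2.66% in the wild-type libraries. Emilin3, the most abundant emilin per kilobase, had 368 and 325 CPM in mutant libraries 1 and 2, against 305 and 312 CPM in wild-type libraries 1 and 2 (adjusted p = 0.293). Emilin1, whose product restrains TGF-beta processing, had 229 and 198 CPM in mutant libraries 1 and 2, against 177 and 142 CPM in wild-type libraries 1 and 2 and was not called (log2 0.42 ± 0.12, adjusted p = 0.0796), while DESeq2 called it. Per 100 counts of Emilin3, Emilin2 had 10.7 and 11.1 counts in the mutant libraries and 4.44 and 4.24 counts in the wild-type libraries.

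Of the 4 latent TGF-beta binding protein genes, none was called by edgeR, DESeq2 or limma voom, and 2 reached an unadjusted p below 0.05. Ltbp3 and Ltbp4, the more abundant, were at 0.26 ± 0.10 and 0.32 ± 0.12 (adjusted p = 0.157 and 0.142). Ltbp1 was at 0.30 ± 0.16 (adjusted p = 0.296). Ltbp2, which binds fibrillin but not TGF-beta, was the lowest of the 38 by fold change, at -0.25 ± 0.25 (adjusted p = 0.581), with 38.1 and 33.5 CPM in mutant libraries 1 and 2, against 55.1 and 28.9 CPM in wild-type libraries 1 and 2. The wild-type pair lay on either side of the mutant pair.

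Of the 7 proteoglycan genes, Aspn and Ogn rose. Aspn encodes asporin, a small leucine-rich protein that binds collagen and TGF-beta (chromosome 13, 49639812 to 49662926, plus strand; ENSMUSG00000021388.6), and had 189 and 133 CPM in mutant libraries 1 and 2, against 73.6 and 70.97 CPM in wild-type libraries 1 and 2. Mutant replicate 1 was the highest, and the wild-type pair lay close together (log2 1.15 ± 0.15, 2.22-fold, adjusted p = 0.0104). Ogn encodes osteoglycin, also called mimecan (chromosome 13, 49703440 to 49719869, plus strand; ENSMUSG00000021390.5), and had 289 and 338 CPM in mutant libraries 1 and 2, against 223 and 239.8 CPM in wild-type libraries 1 and 2. Here mutant replicate 2 was the highest (log2 0.44 ± 0.10, 1.36-fold, adjusted p = 0.0453), and the call was lost in several settings listed further on. Dcn, the decorin gene and second of the group per kilobase after Sparc, had 1138 and 1279.8 CPM in mutant libraries 1 and 2, against 1081 and 937 CPM in wild-type libraries 1 and 2 (log2 0.26 ± 0.12, adjusted p = 0.203). Bgn, which encodes the close relative biglycan, was at 0.14 ± 0.12, Lum (lumican) at 0.24 ± 0.20 and Fmod (fibromodulin) at 0.46 ± 0.14 (adjusted p = 0.495, 0.476 and 0.0892). Vcan, the gene of the large hyaluronan-binding proteoglycan versican, was at 0.45 ± 0.17 (adjusted p = 0.146). Per 100 counts of Dcn, Aspn had 16.6 and 10.4 counts in the mutant libraries and 6.81 and 7.57 counts in the wild-type libraries.

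Aspn and Ogn lie in a run of 4 small leucine-rich proteoglycan genes on the plus strand of chromosome 13, in the order Ecm2, Aspn, Omd, Ogn, which spans 119691 bases in mm9. The 4 neighbours did not share a direction of fold change. Ecm2, which is outside the 38, was called lower (log2 -0.65 ± 0.15, adjusted p = 0.048). It had 16.6 and 20.05 CPM in mutant libraries 1 and 2, against 27.6 and 30.4 CPM in wild-type libraries 1 and 2. The Ecm2 call was lost with upper quartile scaling, by limma voom and without a filter. Omd (osteomodulin), also outside the 38, was read at 2.46 and 4.66 CPM in the mutant libraries and 3.68 and 5.69 CPM in the wild-type libraries (log2 -0.31 ± 0.37, adjusted p = 0.648). The gaps from gene to gene are 11653, 15208 and 15461 bases. The 250 bases before each RefSeq start are shown because these neighbours differed in direction; the sequences come from RefSeq's GRCm38.p6 table and each matched mm9 exactly at 1 place. They lie at chr13:49599929-49600178 for Ecm2, chr13:49639562-49639811 for Aspn, chr13:49677581-49677830 for Omd and chr13:49703134-49703383 for Ogn, all on the plus strand.
Ecm2: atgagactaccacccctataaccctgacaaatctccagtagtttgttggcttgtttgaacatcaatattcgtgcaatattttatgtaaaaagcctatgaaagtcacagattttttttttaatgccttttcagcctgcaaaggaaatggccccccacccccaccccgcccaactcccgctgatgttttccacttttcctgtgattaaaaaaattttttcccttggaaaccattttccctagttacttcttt
Aspn: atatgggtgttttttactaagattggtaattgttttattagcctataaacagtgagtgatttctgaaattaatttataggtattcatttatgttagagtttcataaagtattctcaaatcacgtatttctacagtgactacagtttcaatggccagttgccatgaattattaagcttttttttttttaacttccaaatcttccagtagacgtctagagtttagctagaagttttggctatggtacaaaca
Omd: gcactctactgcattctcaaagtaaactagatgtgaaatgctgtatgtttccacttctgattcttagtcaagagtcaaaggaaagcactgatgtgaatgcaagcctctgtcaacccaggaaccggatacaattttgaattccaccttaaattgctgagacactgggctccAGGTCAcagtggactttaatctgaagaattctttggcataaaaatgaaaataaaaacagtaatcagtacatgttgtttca
Ogn: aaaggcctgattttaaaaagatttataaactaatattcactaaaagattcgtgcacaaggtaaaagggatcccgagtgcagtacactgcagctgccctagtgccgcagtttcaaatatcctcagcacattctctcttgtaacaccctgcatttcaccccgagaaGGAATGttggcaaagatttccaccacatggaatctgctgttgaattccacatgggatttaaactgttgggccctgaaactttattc
Capitals mark matches, on either strand, to the thyroid hormone receptor half-site letters AGGTCA, the AP-1 letters TGANTCA or the TEAD letters GGAATG. No capitals stand in the windows of Ecm2 and Aspn, which says only that these letters are not there. AGGTCA occurs in the window of Omd and GGAATG in that of Ogn. Of all 32851 RefSeq windows of this length, 14.02% hold AGGTCA, 6.75% TGANTCA and 12.6% GGAATG. Of the 10 genes that rose, 5 had a window in the table, of which 0 held AGGTCA, 0 held TGANTCA and 1 held GGAATG.

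Dcn and Lum are neighbours on chromosome 10 in the same way, 47357 bases apart. Both had positive log2 fold changes of similar size, without a call.

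Among the matricellular and adhesive genes, Thbs1, Thbs2 and Fn1 rose and the other 5 were not called. Thbs1 encodes thrombospondin 1, an inhibitor of vessel growth that can activate latent TGF-beta (chromosome 2, 117937612 to 117952869, plus strand; ENSMUSG00000040152.8), and had 44.2 and 44.9 CPM in mutant libraries 1 and 2, against 18.02 and 21.1 CPM in wild-type libraries 1 and 2. The mutant pair nearly coincided, above both wild-type libraries (log2 1.19 ± 0.13, 2.29-fold, adjusted p = 0.00577). Thbs2, its close relative, had 180.5 and 188 CPM in mutant libraries 1 and 2, against 139 and 119 CPM in wild-type libraries 1 and 2 (log2 0.51 ± 0.10, 1.42-fold, adjusted p = 0.0284). Thbs1 rose by the larger factor, and per 100 counts of Thbs2 it had 24.5 and 23.9 counts in the mutant libraries and 12.9 and 17.7 counts in the wild-type libraries. Fn1, the gene of fibronectin, the glycoprotein on which cells attach through integrins (chromosome 1, 71632094 to 71699774, minus strand; ENSMUSG00000026193.8), had 379 and 409 CPM in mutant libraries 1 and 2, against 281 and 196 CPM in wild-type libraries 1 and 2. The wild-type pair was wider than the mutant pair, and the groups did not overlap (log2 0.72 ± 0.15, 1.65-fold, adjusted p = 0.0365).

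Tnc, which encodes tenascin C, an anti-adhesive protein of remodelling tissue, had the second largest fold change but was not called. It had 40.1 and 19.8 CPM in mutant libraries 1 and 2, against 14.2 and 8.63 CPM in wild-type libraries 1 and 2; the groups did not overlap, and mutant replicate 1 stood far above its partner (log2 1.34 ± 0.35, adjusted p = 0.0634). Its log2 fold change was 0.77 without mutant replicate 1, the library with the most muscle transcripts, and up to 1.79 with another library left out. The part of muscle in the Tnc value was not tested. Postn, the periostin gene, had 416 and 370.3 CPM in mutant libraries 1 and 2, against 413 and 176 CPM in wild-type libraries 1 and 2 (log2 0.41 ± 0.31, adjusted p = 0.447). Only wild-type replicate 2 was low, and the Postn value turned on the choice of wild-type library. Leaving out wild-type replicate 1 gave 1.15 (adjusted p = 0.0323), and leaving out wild-type replicate 2 gave -0.08 (adjusted p = 0.685). Tnxb, the gene of the fibroblast glycoprotein tenascin X, had 46.9 and 45.9 CPM in mutant libraries 1 and 2, against 59.03 and 28.5 CPM in wild-type libraries 1 and 2, with the mutant pair inside the wild-type range (adjusted p = 0.906). Sparc encodes a collagen-binding protein also known as osteonectin and was the most abundant of the 38, at 1253 and 1245 CPM per kilobase in the mutant libraries and 1244 and 1143 CPM per kilobase in the wild-type libraries. It had 4219 and 4191 CPM in mutant libraries 1 and 2, against 4189.8 and 3848 CPM in wild-type libraries 1 and 2, a log2 fold change of 0.07 ± 0.14 (adjusted p = 0.805). Dpt, which encodes the decorin-binding protein dermatopontin, was at -0.08 ± 0.13 (adjusted p = 0.722), and its mutant libraries enclosed the wild-type pair.

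**Figure D3:**
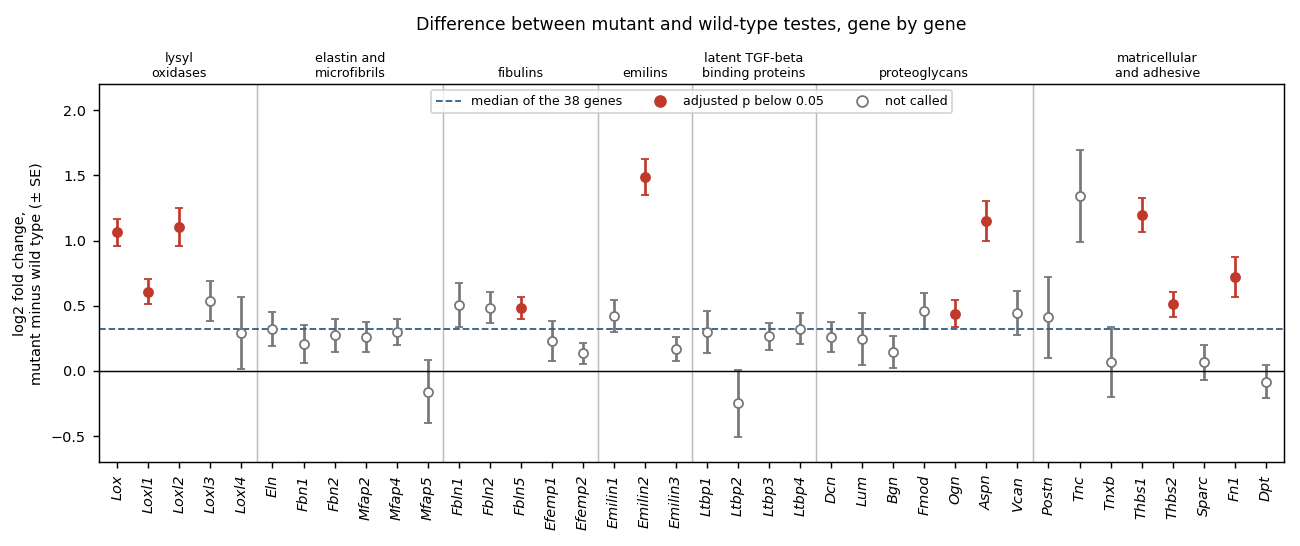
Log2 fold change, mutant minus wild type, with its standard error, for each of the 38 genes by role (n = 2 libraries each). Filled red points are the 10 called genes and the dashed line is the median of the 38 genes, 0.32. Elastin, microfibril and latent TGF-beta binding protein genes lie at or below about the median, while Lox, Loxl2, Emilin2, Aspn, Thbs1 and the uncalled Tnc lie above 1.

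By level the genes spanned a wide range. Per kilobase of exon, Sparc was first, then Dcn at 588 and 661 CPM per kilobase in the mutant libraries and 558 and 484 CPM per kilobase in the wild-type libraries. Mfap4 was the third, at 349 and 301 CPM per kilobase in the mutant libraries and 261 and 269 CPM per kilobase in the wild-type libraries. Eln followed, at 320.5 and 279 CPM per kilobase in the mutant libraries and 267 and 211 CPM per kilobase in the wild-type libraries. The wild-type ranges of Mfap4 and Eln overlap, so these 2 have no clear order there. Lox was 18th of the 38 per kilobase and Emilin2 32nd. Tnc and Loxl4 were the lowest.

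The wild-type libraries differed from each other in these genes more than the mutant libraries did. Wild-type replicate 1 was above wild-type replicate 2 for 33 of the 38, with a median log2 ratio of 0.32, against 0.0025 over all tested genes. The same ratio between mutant replicates 1 and 2 was positive for 21 of 38, with a median of 0.02 and an absolute median of 0.16. Skeletal muscle markers, in contrast, stood at 2479 and 648 CPM in mutant replicates 1 and 2. Among the genes that rose, Aspn and Loxl2 were the ones clearly higher in mutant replicate 1, with log2 ratios over mutant replicate 2 of 0.51 and 0.39. Their log2 fold changes without that library were 0.88 and 0.90. That fit rests on mutant replicate 2 alone and so takes no spread from the mutant group.

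Most calls needed both wild-type libraries. With wild-type replicate 1 left out the test called 4 members, Lox, Emilin2, Fn1 and Postn, and without wild-type replicate 2 it called 3, Lox, Emilin2 and Thbs1. Calls dropped over all tested genes in these fits as well, to 34 higher and 40 lower without wild-type replicate 1 and to 60 higher and 88 lower without wild-type replicate 2. Without mutant replicate 1 or mutant replicate 2 it called more members higher than with all 4 libraries, and also more of all tested genes higher. Lox and Emilin2 were called in all 4 of these fits, Lox at log2 fold changes of 0.94 to 1.19 and Emilin2 at 1.43 to 1.55. The calls of Loxl1, Loxl2, Aspn and Thbs2 were lost without either wild-type library, that of Thbs1 without wild-type replicate 1 (adjusted p = 0.0506), and that of Fn1 without wild-type replicate 2 (log2 0.48, adjusted p = 0.0783). The calls of Fbln5 and Ogn were each lost in 3 of the 4 fits. The log2 fold changes of the 10 genes stayed positive throughout.

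**Figure D4:**
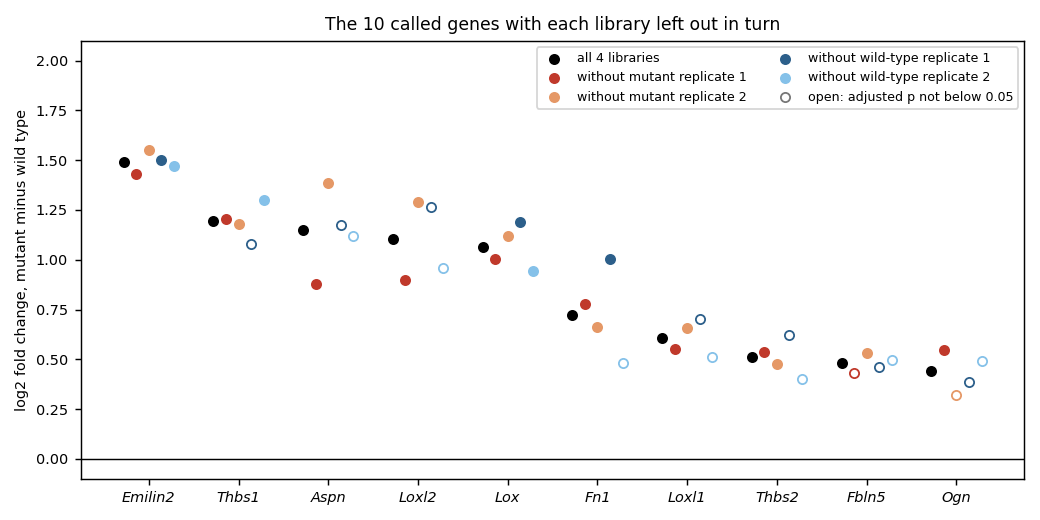
Log2 fold change, mutant minus wild type, of the 10 called genes with all 4 libraries and with each library left out in turn; open points were not called. Emilin2 and Lox have filled points throughout, while most open points belong to the fits without a wild-type library. The lowest value is 0.32, for Ogn without mutant replicate 2.

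The non-collagen stromal markers Pdgfra, Tcf21, Nr2f2 and Lhx9, of which edgeR called Lhx9, had a summed level of 1037 and 1009.8 CPM in mutant libraries 1 and 2, against 847 and 856 CPM in wild-type libraries 1 and 2. The 4 markers differed in log2 fold change. Pdgfra, the largest of them, was at 0.36 ± 0.10, Nr2f2 at 0.23 ± 0.09 and Lhx9 at 0.68 ± 0.11, while Tcf21 was at -0.06 ± 0.09 with overlapping groups (adjusted p = 0.0676, 0.179, 0.0212 and 0.733). Counts of the 38 genes were also set against the counts of these 4 markers within each library, a step chosen after the data were seen. Per 100 marker counts, Lox had 24.2 and 22.9 counts in the mutant libraries and 14.8 and 12.3 counts in the wild-type libraries. Emilin2 had 3.78 and 3.58 counts in the mutant libraries and 1.60 and 1.55 counts in the wild-type libraries on the same scale, and Thbs1 had 4.27 and 4.44 counts in the mutant libraries and 2.13 and 2.46 counts in the wild-type libraries. Both mutant libraries stayed above both wild-type libraries for 9 of the 10 called genes, the exception being Ogn. The median log2 ratio over the 10 was 0.64. These 10 were picked as higher in the same libraries, so both values largely follow from the calls and are no separate test. Over all 38 genes the median log2 ratio was 0.07, with both mutant libraries higher for 11 genes and lower for 4. The matching counts over all tested genes were not taken on this scale, so the 11 and 4 have no background to be read against. Other choices of markers were not tried. Dcn, with 109.8 and 127 counts in the mutant libraries and 128 and 109 counts in the wild-type libraries, overlapped between groups. So did Eln, with 79.8 and 71.3 counts in the mutant libraries and 81.6 and 63.7 counts in the wild-type libraries. Sparc, Dpt, Emilin3 and Efemp2 were lower in both mutant libraries on this scale.

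With the libraries scaled to these markers the edgeR test called 7 of the 38 higher and 0 lower. The 7 were Lox, Loxl1, Loxl2, Emilin2, Aspn, Thbs1 and Tnc, and the calls of Fbln5, Ogn, Thbs2 and Fn1 were lost (adjusted p = 0.0751, 0.22, 0.0949 and 0.0558). This scaling moved the median of all tested genes to -0.27, so 4460 genes were called lower and 390 higher. On that scale the log2 fold change of Lox was 0.80 and that of Emilin2 1.22.

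Other matrix genes were read from 5 lists that complete the same pathway, with 66 members tested. Of these, 10 rose and 2 fell, 18.2% against 5.67% called over all tested genes in either direction. Without wild-type replicate 1 none of them was called, and without wild-type replicate 2 only 1 was. In the hyaluronan list 2 of 7 were called higher and 0 lower by edgeR, while limma voom called 1 higher and DESeq2 2 higher and 1 lower. Cd44, the hyaluronan receptor, had 55.2 and 41.3 CPM in mutant libraries 1 and 2, against 19.6 and 17.2 CPM in wild-type libraries 1 and 2 (log2 1.38 ± 0.17, adjusted p = 0.00859), and Has2, the main hyaluronan synthase of mesenchyme, had 13.6 and 8.30 CPM in mutant libraries 1 and 2, against 4.06 and 3.23 CPM in wild-type libraries 1 and 2 (log2 1.54 ± 0.32, adjusted p = 0.0352). Cd44 is also carried by leukocytes, and 2 of 7 macrophage markers were called higher in the same libraries. The 7 summed to 191 and 273 CPM in mutant libraries 1 and 2, against 145 and 165 CPM in wild-type libraries 1 and 2. Mutant replicate 2 was thus the higher for these markers and mutant replicate 1 for Cd44. The part of leukocytes in the Cd44 value was not tested. In the matricellular list the CCN family gene Nov rose 3.54-fold, Thbs4 2.76-fold and Thbs3 1.38-fold (adjusted p = 0.0173, 0.0356 and 0.0306). Ctgf, another CCN family gene, named after its value was seen, fell 1.30-fold, with 110.3 and 105 CPM in mutant libraries 1 and 2, against 146 and 134 CPM in wild-type libraries 1 and 2 (adjusted p = 0.0462). Nov and Ctgf, relatives within 1 family, had fold changes in opposite directions. The Ctgf call was lost with upper quartile scaling, by limma voom and without a filter. Mutant replicate 1, which held the most muscle transcripts, was above mutant replicate 2 for Cd44, Has2, Nov and Thbs4, and the part of muscle in these values was not tested.

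In the other elastic fibre list 2 of 17 rose, the microfibril-binding gene Adamtsl5 (2.21-fold, adjusted p = 0.0201) and the hemicentin gene Hmcn1, a very large fibulin relative (1.54-fold, adjusted p = 0.0332). In the small leucine-rich list of 9, Podn, the podocan gene, rose 1.76-fold (adjusted p = 0.0362) and Ecm2 fell. In the TGF-beta list of 17, the receptor gene Tgfbr2 had 126 and 116 CPM in mutant libraries 1 and 2, against 73.8 and 82.1 CPM in wild-type libraries 1 and 2 (log2 0.63 ± 0.10, adjusted p = 0.0167), and Ski, which encodes a repressor of Smad proteins, rose 1.34-fold (adjusted p = 0.046). The ligand genes Tgfb1, Tgfb2 and Tgfb3, named for their role outside the rule on called genes, were at 0.27 ± 0.14, 0.60 ± 0.16 and 0.18 ± 0.11, none called (adjusted p = 0.275, 0.0668 and 0.328).

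In mm9 an exon of 8 of the 38 genes overlaps an annotated gene on the opposite strand, among the called genes only Fn1, by 292 bases with Apol7d. The strand setting of the authors' counting was not given in the sources used here, and reads in such overlaps cannot be assigned to a strand.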

How the data were processed

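The authors deposited 1 table of whole-number counts per gene for the 4 libraries, put under the heading of expected or estimated counts since the same columns carry percentages below the genes. The gene values are raw counts: each is whole and their sum equals the table's own total of reads in genes in each library. The submitters' processing notes name build mm9, HTSeq, TopHat 1.4.0, DESeq2 and CASAVA 1.8.1 without their roles, and per the labels' protocols reads were single-end, 100 bases long. Lines that name no gene were left out of library sizes and tests; reads in no annotated gene made up 13.8% to 17.3% and ambiguous reads 0.602% to 0.726% of counted reads.

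Counts were tested with edgeR 4.0.16 (R 4.3.3), quasi-likelihood F test, TMM scaling, legacy and robust options off, genotype as the single term, over the 14788 genes kept by edgeR's filter (minimum count 10, minimum total 15). CPM and per-kilobase levels use TMM-adjusted library sizes and merged exon lengths of GENCODE M1. Standard errors are the absolute log2 fold change over the root of its F statistic. The fit was tested on simulated data. The 38 genes, the lists and the settings were chosen with earlier results of these data known. All 38 genes are accounted for; in the other lists up to 3 called genes by smallest p are named. Other settings were DESeq2 1.42.0, limma 3.58.1 voom, other scalings and filters, robust and legacy fits, a replicate block and each library left out; scaling to 4 stromal markers was added after seeing the data.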

Additional observations from a re-analysis of the deposited data

How the results depend on the processing

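With all 4 libraries, other settings called 7 to 14 members higher, against 10 in the reported fit. With 1 library left out, where the lone sample is assumed to vary like the other group, 3 to 12 were called. None of these settings called a member lower. The count in the 5 other lists, 12 with all libraries, was 7 by limma voom and 0 to 14 with 1 library left out. Of 570 fold changes of members under other settings, 530 stayed on their side of the threshold, 25 lost and 15 gained a call, and 19 changed sign, none of them of a called gene. The cause of these moves was not tested. The call of Ogn was lost with library size alone, by limma voom and without a filter, and that of Fn1 with the robust option and without a filter. DESeq2 called 14 members, adding Emilin1, Fbln1, Fbln2 and Fmod. The median log2 fold change of the 38 genes was 0.17 without wild-type replicate 2, 0.59 without wild-type replicate 1 and 0.06 with the scaling to stromal markers. Over all genes the counts higher and lower were 466 and 373 in the reported fit. They were 614 and 412 by DESeq2 and 512 and 341 with the replicate number as a block. By limma voom they were 309 and 272, and without a filter 282 and 218.

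The replicate numbers are not stated to pair the samples, and the replicate 1 minus 2 differences of the genotypes correlated at -0.03 over all tested genes. With the replicate number as a block, 12 members were called, adding Emilin1 and Tnc, and 14 genes of the other lists. With 2 libraries per group, the fit has 2 residual degrees of freedom.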
